A study of Mus musculus with 8 samples.

Results

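The miR-199 and miR-214 family was followed through 6 mature miRNA names, mmu-miR-199a-3p, mmu-miR-199b-3p, mmu-miR-199a-5p, mmu-miR-199b-5p, mmu-miR-214-3p and mmu-miR-214-5p, of 1915 names listed for each library. The prefix mmu stands for mouse and is mostly left out. All 6 were found, and because both 3p names of miR-199 carried the same value in each library they were counted once, which left 5 products. The members were chosen by name, at a time when genotype differences in these libraries, that of miR-199a-3p among them, were already known. Differences between genotypes are therefore given as descriptions of the members, without p-values. The libraries hold the small RNA of mouse prefrontal cortex at an age of 12 weeks on the C57BL/6 background, 4 of them Fkbp5 knockout (replicates 1, 2, 4 and 5) and 4 wild type (replicates 1, 2, 3 and 4). The protein made from Fkbp5 works with the chaperone Hsp90 and dampens glucocorticoid receptor signalling. Its messenger RNA is outside the reach of a small RNA assay, so the genotype labels were not checked here. The labels do not give the kind of knockout allele or say that each library is 1 animal, so the spread between libraries may be in part technical.

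A miRNA is cut from a hairpin precursor, and either the 5p or the 3p arm of the hairpin can be loaded into the silencing complex. The loaded strand finds target messenger RNAs mainly through its seed, bases 2 to 8 from its 5′ end. The miR-199 and miR-214 genes are known as miRNAs of mesenchyme, the connective and supporting tissue that includes fibroblasts and the cells around vessels, and in mouse embryos the transcript that carries miR-199a and miR-214 is needed for skeletal growth. In brain tissue, such cells are found in the meninges and along vessels, beside a large majority of neurons and glia.

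Mature sequences were taken from RefSeq (GRCm38.p6), where 5 of the 6 names had an entry, and they are shown because the seed decides which products can share targets. The seed is in capitals, written 5′ to 3′.
miR-199a-3p: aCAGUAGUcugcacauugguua
miR-199b-3p: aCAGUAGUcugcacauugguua
miR-199a-5p: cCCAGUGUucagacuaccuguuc
miR-214-3p: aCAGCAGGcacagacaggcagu
miR-214-5p: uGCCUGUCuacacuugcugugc

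The sequences of miR-199a-3p and miR-199b-3p are identical over all 22 bases, so their reads cannot be assigned to one gene or the other. The 3p products of miR-199 and miR-214 look alike at their 5′ ends, but 2 of the 7 seed positions differ, U5C and U8G (miR-199-3p base, position from 1 at the 5′ end, miR-214-3p base), and 14 of 22 positions differ over the whole length. No seed is therefore shared between the products with an entry, apart from the identical 3p pair. miR-199b-5p has no entry and was not compared, but the bases of the miR-199a-5p seed, CCAGUGU, also occur in the Mir199b hairpin. Among 1679 mature names in the RefSeq table, the seed of miR-214-3p was found in 1 further miRNA, miR-761, which was listed at 0 in every library. The other member seeds were found in no further name of that table.

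The 4 hairpins that make these products are shown with the mature arms that have an entry in capitals, because 3 genes feed a single 3p product.
Mir199a-2: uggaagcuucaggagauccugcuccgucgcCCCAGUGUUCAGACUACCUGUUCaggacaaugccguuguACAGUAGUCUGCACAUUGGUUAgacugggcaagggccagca
Mir214: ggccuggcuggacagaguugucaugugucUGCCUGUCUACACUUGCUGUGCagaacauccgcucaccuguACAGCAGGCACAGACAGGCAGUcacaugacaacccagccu
Mir199b: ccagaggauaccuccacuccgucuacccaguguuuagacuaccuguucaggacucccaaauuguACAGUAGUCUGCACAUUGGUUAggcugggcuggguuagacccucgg
Mir199a-1: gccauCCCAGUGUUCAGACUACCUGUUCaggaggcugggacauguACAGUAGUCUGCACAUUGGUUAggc

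All 4 hairpins lie in introns of dynamin genes, on the strand opposite to the gene. Dynamins are GTPases that pinch vesicles off the membrane. Mir199a-2 (chr1:162217814-162217923, plus strand, GRCm38) and Mir214 (chr1:162223368-162223477, plus strand) are 5444 bases apart inside Dnm3, and both fall in exons of Dnm3os, a long noncoding RNA at chr1:162217623-162225550 on their own strand. Mir199b (chr2:32318460-32318569, plus strand) lies in an intron of Dnm1, and Mir199a-1 (chr9:21496495-21496564, minus strand) in an intron of Dnm2. By these positions Dnm3os holds 1 of the 3 hairpins for miR-199-3p and the single hairpin for miR-214.

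The values of a library summed to between 16.2 and 21.6 times 1000000, and libraries were rescaled to each other with factors from 0.838 to 1.21. Rescaled values are deposited values divided by that factor. The file headers call the deposited values normalized counts, but every value is a whole number and the totals differ between libraries, so unnormalized counts cannot be told apart from normalized ones here. Rescaled values are therefore given with no fixed unit, and whether the totals are sequencing depths is unknown. The libraries were those of neural tissue. Among 599 miRNAs that passed a filter on low values, miR-128-3p and miR-9-5p ranked 1 and 2 by mean level. Both are on the list of neuronal miRNAs used below. The filter asked for a value of 10 in at least 4 libraries. Of the 6 member names, 4 passed it: both 3p names of miR-199, miR-199a-5p and miR-214-3p. miR-214-3p passed with no library to spare, through wild-type replicates 1, 2 and 4 and knockout replicate 2. It thus passed mostly through wild-type libraries.

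The family was carried almost wholly by miR-199-3p, the strand shared by 3 hairpins, which in human liver cancer cells is known to repress mTOR. The shared value of mmu-miR-199a-3p and mmu-miR-199b-3p was 3908, 5540.2, 3682 and 3867 in knockout replicates 1, 2, 4 and 5, against 5349.5, 5289 and 5669.9 in wild-type replicates 1, 2 and 3 and 6143 in replicate 4. Knockout replicates 1, 4 and 5 lay below all 4 wild-type libraries, and knockout replicate 2 lay inside the wild-type range, so the groups overlapped. Its mean was 4249 ± 866 in the knockout and 5613 ± 391 in wild type (SD, n = 4 each), which placed it at rank 105 of 599. As a share of all values, it averaged 228 per 1000000 in the knockout and 297 per 1000000 in wild type.

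**Figure D1:**
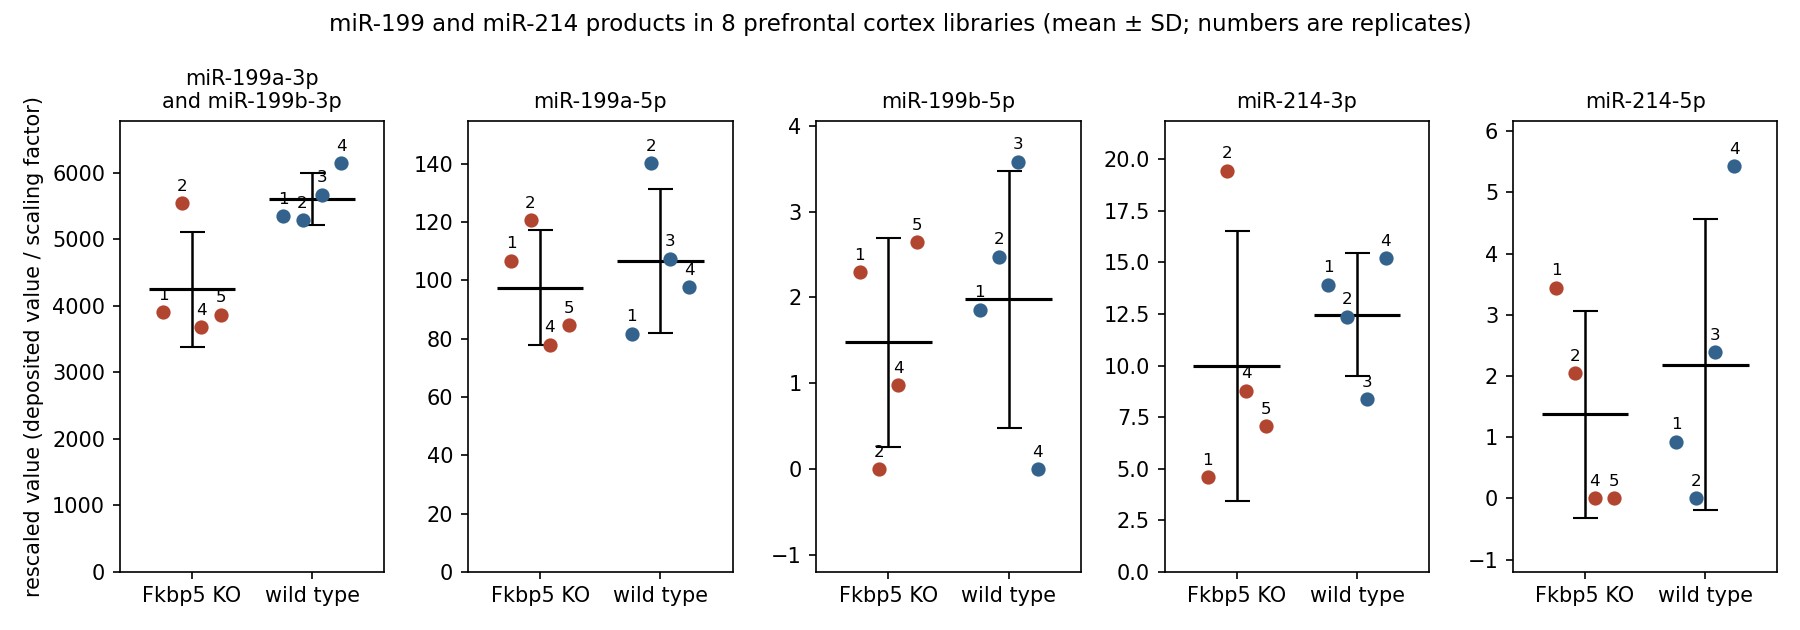
Rescaled value (vertical axis, no fixed unit) of each miR-199 and miR-214 product in the 4 Fkbp5 knockout and 4 wild-type libraries; points are libraries labelled by replicate number, bars are the mean and SD. For miR-199-3p, knockout replicates 1, 4 and 5 sit between 3682 and 3908, below all wild-type libraries, and knockout replicate 2 sits at 5540.2; the other products overlap throughout and miR-199b-5p and miR-214-5p stay near 0.

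The log2 fold change of miR-199-3p, knockout minus wild type, was -0.42 ± 0.14 (SE), a level 1.34-fold higher in wild type. Among all 599 tested miRNAs, 30 names (5.01%), both miR-199 3p names included, had a log2 fold change at least as low, and the median over all tested was 0.01. With limma and Benjamini-Hochberg adjustment over all 599, 0 miRNAs passed 0.05 (0.0% of those tested), and so 0 of the 4 tested member names did. At an unadjusted p under 0.05, limma counted 25 of 599 (4.17%), 17 of them lower in the knockout (2.84%). The groups did not overlap for 12 of 599 miRNAs (2.0%), with the knockout below wild type for 8 (1.34%), and for 0 of the 6 members. Without knockout replicate 2, the log2 fold change of miR-199-3p was -0.55 ± 0.11. In bulk tissue, fewer cells of a type and less of the RNA in each cell cannot be told apart.

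mmu-miR-199a-5p, the opposite arm of the miR-199a hairpins, is known in human lung fibroblasts to repress caveolin. It was at 107, 121, 78.0 and 84.6 in knockout replicates 1, 2, 4 and 5, and at 81.7, 140.2, 107 and 97.7 in wild-type replicates 1 to 4. The groups overlapped almost fully: the highest library was wild-type replicate 2 and the lowest was knockout replicate 4. The means were 97.5 ± 19.8 in the knockout and 107 ± 24.7 in wild type (SD, n = 4 each), at rank 368 of 599, and the log2 fold change was -0.12 ± 0.21 (SE). Leaving out wild-type replicate 2 moved it to 0.02, on the other side of 0.

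mmu-miR-214-3p, which in mouse muscle cells is known to repress the histone methyltransferase Ezh2, was close to the lower limit of the tested range. It was at 4.59, 19.4, 8.77 and 7.05 in knockout replicates 1, 2, 4 and 5, and at 13.9, 12.4, 8.35 and 15.2 in wild-type replicates 1 to 4. Knockout replicate 2 held the highest value of all 8 libraries and knockout replicate 1 the lowest, so the knockout range enclosed the wild-type range. The means were 9.96 ± 6.54 in the knockout and 12.5 ± 2.97 in wild type (SD, n = 4 each), at rank 581 of 599. Its log2 fold change of -0.44 ± 0.41 (SE) was as large as that of miR-199-3p with an SE almost as large as itself. It moved to -0.79 without knockout replicate 2 and to -0.17 without knockout replicate 1.

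The remaining products, miR-214-5p and miR-199b-5p, were at the floor of the data. mmu-miR-214-5p was listed at 0 in knockout replicates 4 and 5 and in wild-type replicate 2, and its deposited value nowhere exceeded 5. mmu-miR-199b-5p was listed at 0 in knockout replicate 2 and wild-type replicate 4, with rescaled values up to 2.64 in the other knockout libraries and up to 3.58 in the other wild-type libraries. Neither passed the filter, and no fold change is given for them. The 5p product assigned to miR-199a was thus far more abundant than the one assigned to miR-199b in both genotypes, with means of 97.5 and 1.48 in the knockout and of 107 and 1.98 in wild type.

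The balance of the 2 arms of miR-199 was read from the log2 ratio of miR-199a-5p to miR-199-3p within each library, with 0.5 added to each arm. Its denominator also holds the product of Mir199b, so it is not the ratio of a single hairpin. The ratio was -5.19, -5.51, -5.55 and -5.51 in knockout replicates 1, 2, 4 and 5, and -6.03, -5.23, -5.72 and -5.97 in wild-type replicates 1 to 4. The 3p product was thus 36.4 to 65.1 times as abundant as the 5p product, in favour of 3p in all 8 libraries. The mean was -5.44 ± 0.17 in the knockout and -5.74 ± 0.36 in wild type (SD, n = 4 each), a difference of 0.30 ± 0.20 (SE), and wild-type replicate 2 lay within the knockout range. For comparison, 141 hairpin names had a mean of 20 or more on each arm. Of these, 15 (10.6%), miR-199a itself included, leaned at least as far towards 3p as miR-199a.

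For miR-214 the log2 ratio of 5p to 3p, with 0.5 added to each arm, was -0.37, -2.97, -4.21 and -3.92 in knockout replicates 1, 2, 4 and 5. In wild-type replicates 1 to 4 it was -3.34, -4.69, -1.62 and -1.40. The 3p arm was the higher one in each library, and the range within each genotype was far wider than the difference between the means, -0.11 ± 1.17 (SE). Within a library, with 1 added to each rescaled value, miR-199-3p was 271 to 699 times as abundant as miR-214-3p, although a hairpin for each lies in Dnm3os. The added 1 lowers this ratio, most of all where miR-214-3p is lowest.

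How the products varied together between libraries was not used to choose them and was tested. Over all 8 libraries, however, a correlation also holds the genotype differences, which were known when the members were chosen. Over the 10 pairs of 5 products, 0 passed an adjusted p of 0.05 (two-sided exact permutation test over all 40320 pairings of 8 libraries, Benjamini-Hochberg over 10 pairs), for Pearson's r or for Spearman's rho. On deviations from the genotype means, with pairings permuted within genotypes, 0 pairs passed it for Pearson's r either. The lowest exact permutation p there was 0.0104 (adjusted 0.104), for miR-199b-5p with miR-214-3p, both close to 0. By Pearson's r over all 8 libraries, 1 pair had an unadjusted p under 0.05. It was miR-199-3p with miR-214-3p, at r = 0.74 (exact permutation p = 0.0480, adjusted 0.359) and rho = 0.57 (exact permutation p = 0.151, adjusted 0.504). Without the 2 libraries farthest from the median of miR-199-3p, r was 0.79. On deviations from the genotype means r was 0.75 (exact permutation within genotypes, p = 0.181), and without knockout replicate 2 that value was -0.10, so the agreement within genotypes rested on 1 library.

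The arms of miR-199 were not shown to vary together. miR-199-3p and miR-199a-5p had r = 0.46 (exact permutation p = 0.247, adjusted 0.617) and rho = 0.43 (exact permutation p = 0.299, adjusted 0.748). Without the 2 libraries farthest from the median of miR-199-3p, r turned to -0.07, so the relation rested on those samples. Such loose coupling was not unusual here: on deviations from the genotype means the arms of miR-199a had r = 0.45, against a median of 0.23 over 141 hairpin names, and 37 of them had a higher r. Without knockout replicate 2 the r of the miR-199a arms was -0.05. miR-199a-5p and miR-214-3p had r = 0.23 (exact permutation p = 0.587, adjusted 0.809). By Spearman's rho, 1 pair had an unadjusted p under 0.05, miR-199b-5p with miR-214-3p (rho = -0.73, exact permutation p = 0.0485, adjusted 0.320), and both products are close to 0.

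The miRNAs whose deviations from the genotype means most resembled those of miR-199-3p were named by rule, as the 5 with the highest Pearson r over 8 libraries among 365 miRNAs with a mean of at least 100. They were miR-191-5p (r = 0.96), miR-322-3p (0.94), miR-152-3p (0.92), miR-24-1-5p (0.83) and miR-184-3p (0.83). These are the highest of 365 values, so no p is given, and all libraries share their scaling. Without knockout replicate 2 the r values of the same 5, in that order, were 0.81, 0.64, 0.48, 0.58 and 0.39. miR-199a-5p ranked 56 on this measure.

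Of these 5, miR-322-3p and miR-152-3p also had a genotype difference of similar direction. miR-322-3p, from an X-linked cluster, was at 692, 859, 652 and 701 in knockout replicates 1, 2, 4 and 5, and between 863 and 943 in wild-type libraries, a log2 fold change of -0.32 ± 0.12 (SE, not past correction) with no overlap of the groups. miR-152-3p, from an intron of the coatomer gene Copz2, averaged 785 ± 99.1 in the knockout and 979 ± 42.2 in wild type (SD, n = 4 each). In both miRNAs, as in miR-199-3p, knockout replicate 2 was the highest knockout library. Both were picked for their likeness to miR-199-3p, whose largest deviation, 0.40, was in knockout replicate 2. The shared high library thus follows largely from how they were picked. Knockout replicate 2 was the highest knockout library for 154 of 599 tested miRNAs (25.7%). miR-191-5p shared the ups and downs on a much smaller scale, with deviations from -0.04 to 0.08 against -0.19 to 0.40 for miR-199-3p. It did not share the genotype difference, at 67229 ± 2745 in the knockout and 64098 ± 1129 in wild type (log2 fold change 0.07 ± 0.08).

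For miR-214-3p the 5 most alike were miR-298-5p (r = 0.95), miR-187-5p (0.87), miR-138-5p (0.86), miR-666-5p (0.86) and miR-433-5p (0.85). miR-138-5p is enriched in neurons, miR-666-5p and miR-433-5p come from the imprinted Dlk1-Dio3 region, and miR-298-5p from the imprinted Gnas region. miR-199-3p ranked 11 for miR-214-3p. These r values held between 0.67 and 0.96 without knockout replicate 2, but miR-214-3p at values of 4.59 to 19.4 has few steps to compare.

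**Figure D2:**
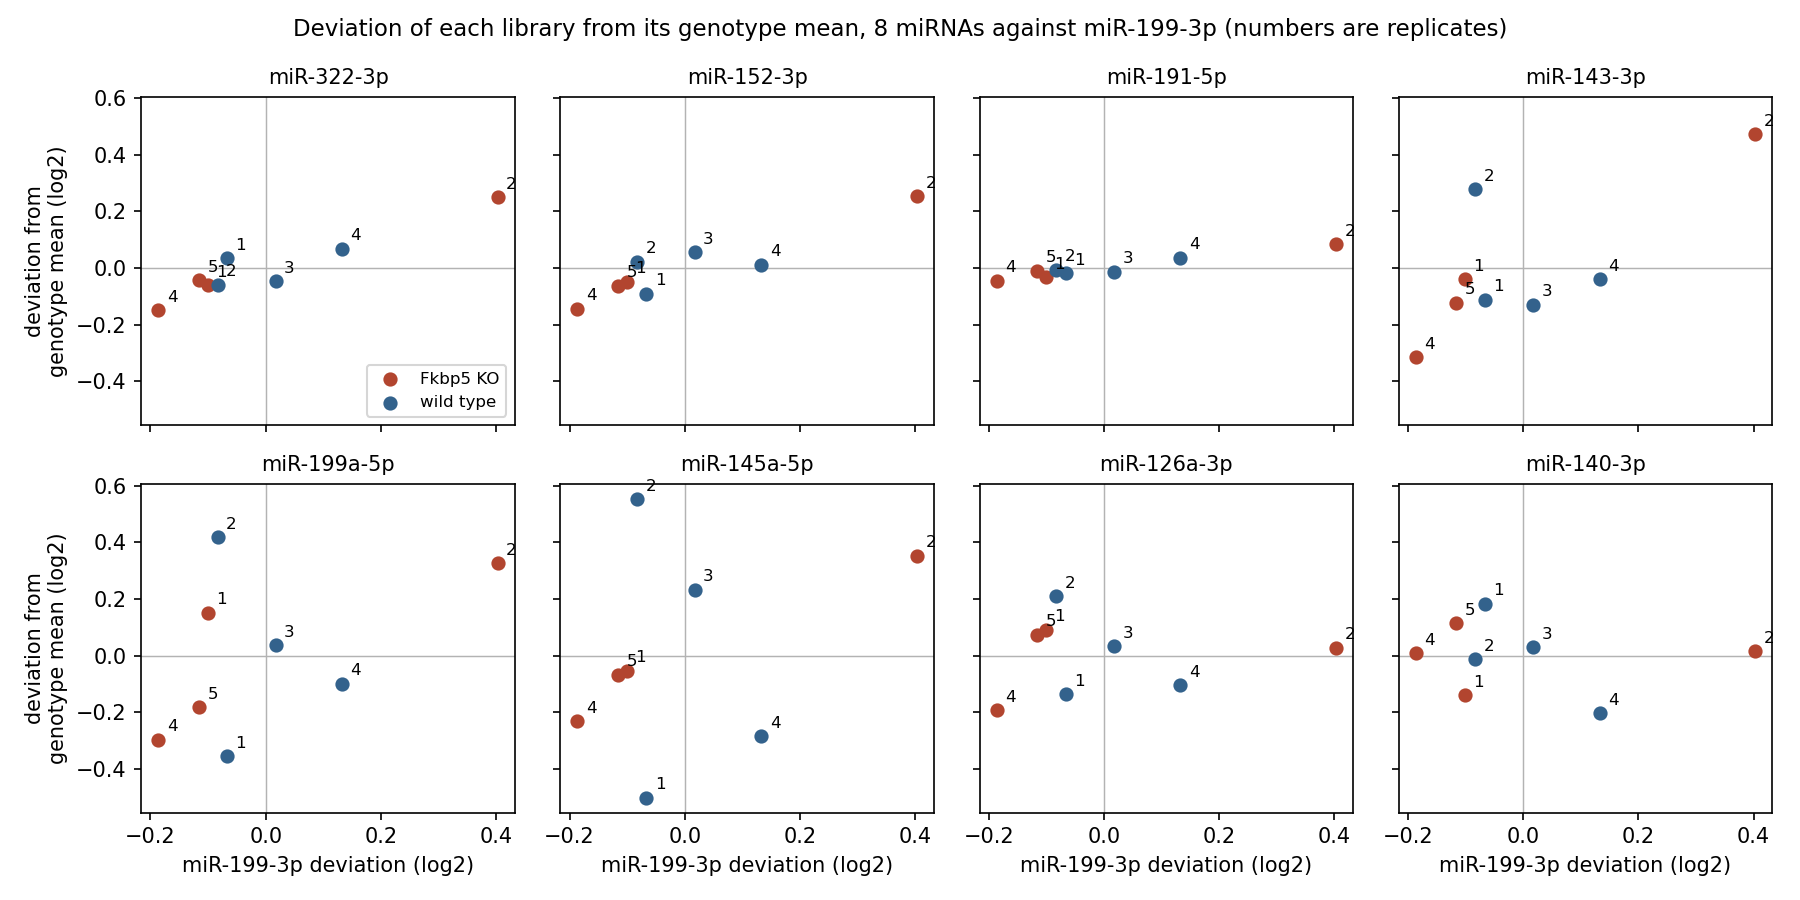
Deviation of each library from its genotype mean on the log2 scale, for 8 miRNAs (vertical axes) against miR-199-3p (horizontal axis); points are libraries labelled by replicate number, in separate colours for knockout and wild type. Knockout replicate 2 lies at 0.40 on the horizontal axis, beyond all other libraries. It is the highest knockout library in every panel except those of miR-126a-3p and miR-140-3p. Over all libraries, miR-199a-5p, miR-145a-5p, miR-126a-3p and miR-140-3p follow miR-199-3p less closely than the others shown.

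miRNAs of smooth muscle and pericytes, the contractile cells around vessels, were set beside the family. miR-143-3p, the most abundant of them, was at 44212, 63072, 36558 and 41736 in knockout replicates 1, 2, 4 and 5, and at 56318, 73846, 55613 and 59170.5 in wild-type replicates 1 to 4. Knockout replicates 1, 4 and 5 again lay below all wild-type libraries and replicate 2 within their range. Its log2 fold change was -0.42 ± 0.16 (SE), as that of miR-199-3p. The log2 ratio of miR-199-3p to miR-143-3p averaged -3.44 ± 0.09 in the knockout and -3.44 ± 0.25 in wild type (SD, n = 4 each), a difference of 0.00 ± 0.13 (SE), with wild-type replicate 2 lowest at -3.80. On deviations from the genotype means miR-143-3p ranked 11 of 365 for likeness to miR-199-3p (r = 0.73, and -0.15 without knockout replicate 2).

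The other smooth muscle products had values nearer to 0. miR-145a-5p, transcribed with miR-143, was at -0.08 ± 0.22 (log2 fold change ± SE), miR-145a-3p at -0.24 ± 0.12 and the low miR-143-5p at 0.14 ± 0.34. Of the 4 tested, 3 had a negative log2 fold change and 0 passed adjustment, with a median of -0.16 against 0.01 over all tested, of which 46.4% were negative. The summed level of the list ran from 39296 to 66870 in the knockout and from 59264 to 78310.3 in wild type, and no marker was at 0 throughout. The part of smooth muscle content in the level of miR-199-3p was not tested.

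**Figure D3:**
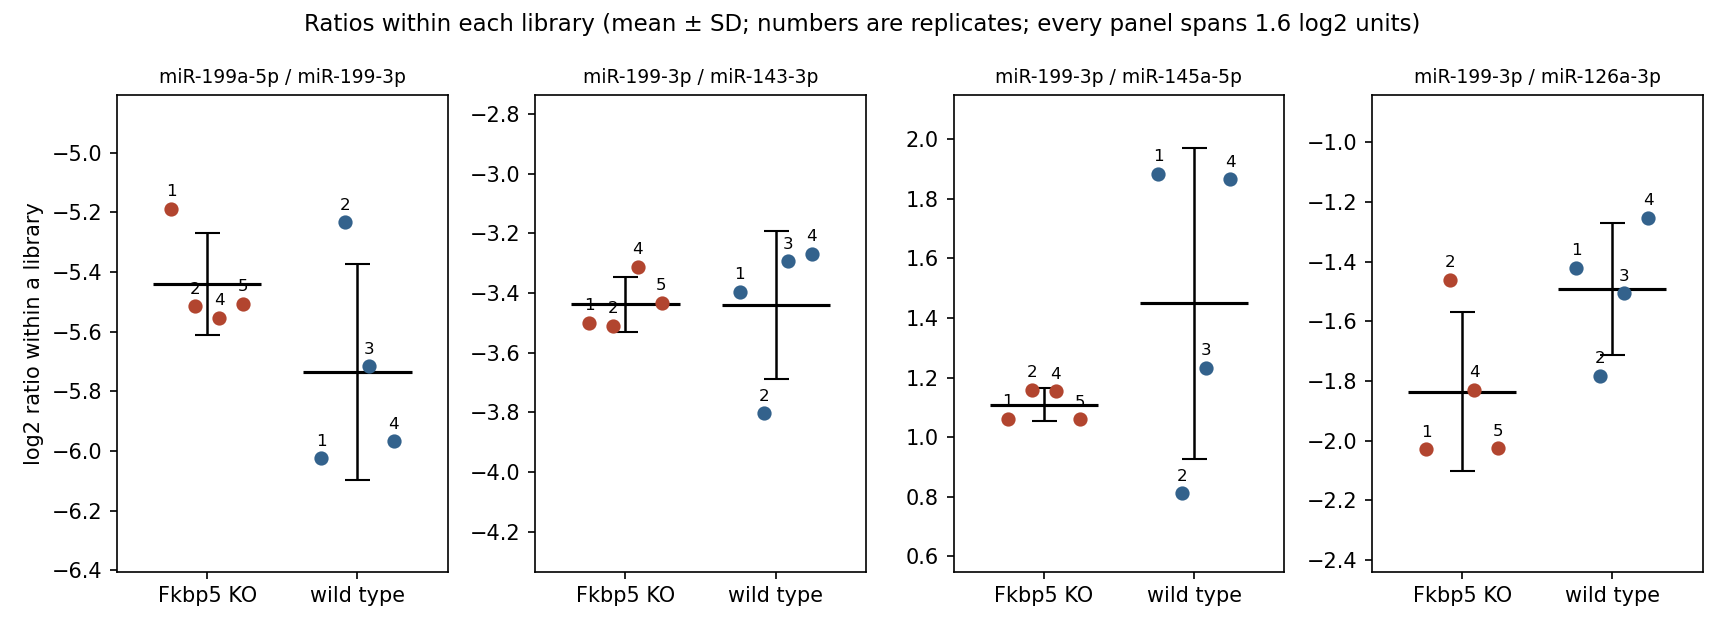
Log2 ratios within each library for miR-199a-5p over miR-199-3p and for miR-199-3p over miR-143-3p, miR-145a-5p and miR-126a-3p; points are libraries labelled by replicate number, knockout left and wild type right, with the mean and SD, and each panel spans the same height. The ratio to miR-143-3p has the same mean, -3.44, in both genotypes. The mean ratios to miR-145a-5p and miR-126a-3p are lower in the knockout. The ratios overlap between genotypes in every panel.

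Endothelial miRNAs had log2 fold changes close to 0. miR-126a-3p, made from an intron of the endothelial gene Egfl7, was at 15013 ± 1312 in the knockout and 15816 ± 1770 in wild type (SD, n = 4 each; log2 fold change -0.07 ± 0.11), and miR-126a-5p was at -0.12 ± 0.16. The log2 ratio of miR-199-3p to miR-126a-3p was -1.84 ± 0.27 in the knockout and -1.49 ± 0.22 in wild type (SD, n = 4 each). The difference was -0.35 ± 0.17 (SE), and the groups overlapped. The summed endothelial level ran from 17029.5 to 20015 in the knockout and from 17455 to 24012 in wild type.

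Cartilage and connective tissue miRNAs, another mesenchymal group, gave no common direction. miR-140-3p, a cartilage miRNA hosted by Wwp2, had a log2 fold change of -0.17 ± 0.12 (SE), its opposite arm miR-140-5p was at 0.05 ± 0.15, and miR-455-3p, hosted by the collagen gene Col27a1, was at 0.30 ± 0.20. miR-455-5p did not pass the filter. Of the 3 tested, 2 were positive and 0 passed adjustment, with a median of 0.05. All 4 were above 0 in every library, with summed levels of 2811 to 3260 in the knockout and 2873 to 3498 in wild type.

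**Figure D4:**
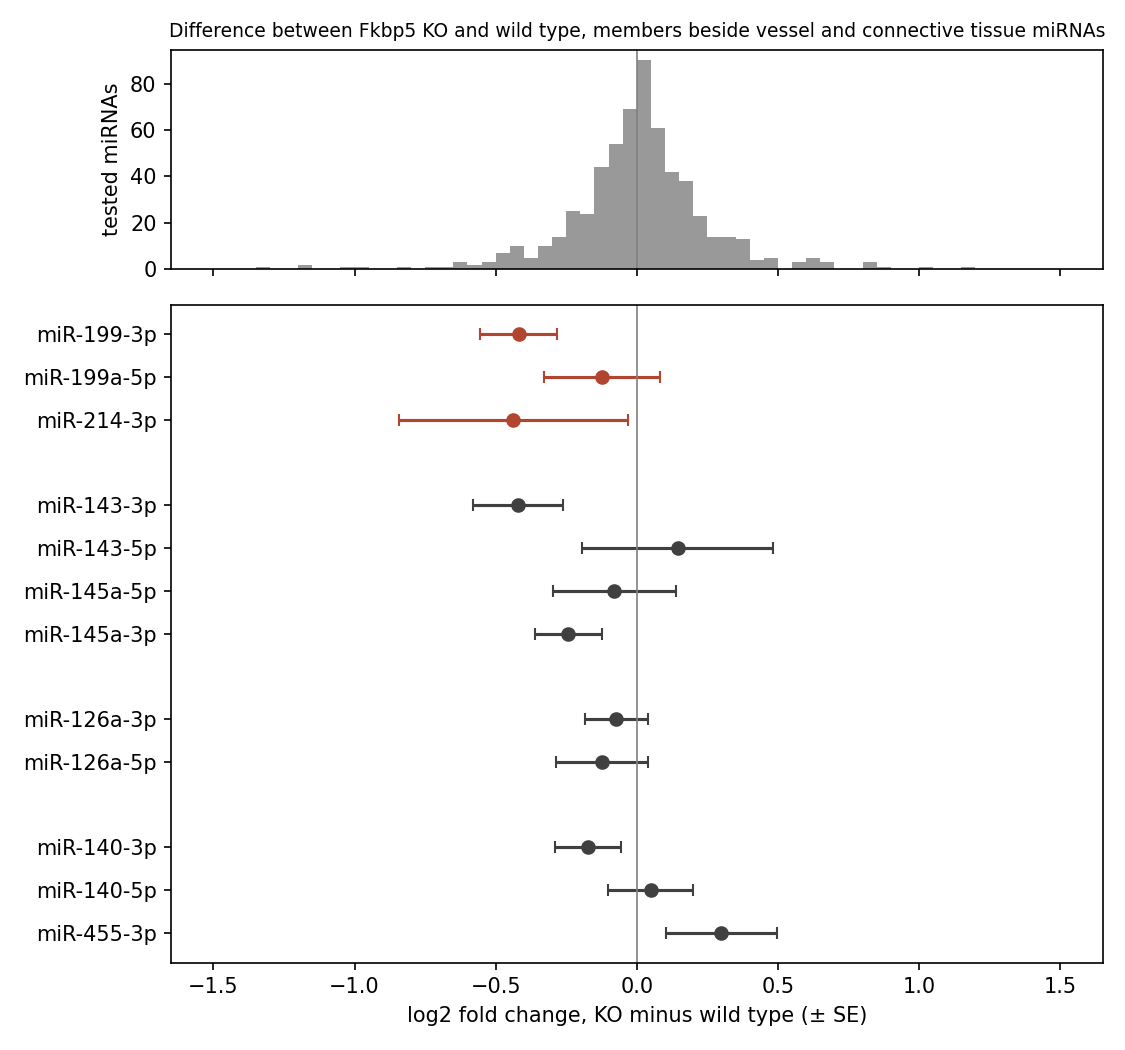
Log2 fold change, knockout minus wild type, with SE bars, for the tested miR-199 and miR-214 products (red) and for smooth muscle, endothelial and cartilage miRNAs (grey); the histogram above counts all 599 tested miRNAs on the same axis. miR-199-3p and miR-143-3p both sit at -0.42, miR-214-3p is as low with a wider bar, and the other values lie between -0.24 and 0.30.

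Markers of other cells that a cortical dissection can hold were read against miR-199-3p as well. The summed level of leukocyte and microglia miRNAs ran from 9150 to 13065 in the knockout and from 8719 to 10611 in wild type (4 tested, median log2 fold change -0.17). Most of this sum was miR-150-5p, at 0.17, whereas miR-142a-5p was at -0.37, miR-223-3p at -0.35 and miR-142a-3p at 0.01. Red blood cell miRNAs summed to 3954 to 5051 in the knockout and 3241 to 5459 in wild type (4 tested, median -0.17). Here miR-486a-5p, at 0.25, held most of the sum, and the other markers were between -0.27 and -0.11. Striated muscle miRNAs summed to 13951 to 16171 in the knockout and 13500.5 to 19844 in wild type (3 tested, median -0.12). None of these sums separated the genotypes. Choroid plexus and ependyma miRNAs summed to 7595 to 8242 in the knockout and 7715 to 11755 in wild type (3 tested, median -0.18). The miR-200 family of epithelium and olfactory bulb summed to 295 to 2121 in the knockout and 527 to 3706 in wild type (4 tested, median -1.18). Those sums overlapped between genotypes as well. The 5 neuronal miRNAs had a median of 0.05.

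In all of these lists 0 members passed adjustment, and no marker was at 0 in every library. On deviations from the genotype means, the summed levels of smooth muscle (r = 0.72) and of leukocytes and microglia (r = 0.71) had the highest r with miR-199-3p over 8 libraries, and the other lists had r between -0.40 and 0.48. This order rested on knockout replicate 2. Without it, over 7 libraries, r was -0.17 for smooth muscle and 0.48 for leukocytes and microglia. Red blood cell miRNAs, at 0.48 over 8 libraries, then had the highest r, 0.96. The neuronal list was at 0.60, against 0.13 over 8 libraries, and the other 5 lists lay between -0.76 and -0.04. Most of the smooth muscle sum was miR-143-3p, of the leukocyte and microglia sum miR-150-5p, and of the red blood cell sum miR-486a-5p. Over 8 libraries r was 0.73 for miR-143-3p but 0.33 for miR-145a-5p and 0.29 for miR-145a-3p. It was 0.70 for miR-150-5p but 0.27 for miR-142a-5p. For the red blood cell miRNAs r over 8 libraries was 0.54 for miR-486a-5p, -0.66 for miR-144-5p and 0.07 for miR-451a. Without knockout replicate 2, r was 0.98 for miR-486a-5p, 0.68 for miR-144-5p and 0.60 for miR-451a, so the sign for miR-144-5p turned on that library. The part of these other cell types in the level of miR-199-3p was not tested.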

How the data were processed

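Each deposited file gives 1 value per mature miRNA name for 1 library. The deposited scores are normalized counts per the file headers, by a method not stated. All are whole numbers and library totals differ, as raw counts would, and which they are could not be settled. They were treated as having no fixed unit, so no count model was fitted. The submitters' processing notes name edgeR, HTSeq 0.6.1p1, Bowtie 1.1.2 and cutadapt 1.11 with genome mm10, in no stated order; how reads that match several miRNAs were counted is not given in the sources used here, and 242 names carry values identical to another name.

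Values were rescaled by an unweighted trimmed mean of log ratios (30% of ratios and 5% of levels trimmed at each end). A miRNA was tested if its value, scaled to the median library, reached 10 in at least 4 libraries with a total of 15. log2(value + 1) was tested for a genotype difference in limma 3.58.1 (R 4.3.3, mean-variance trend, Benjamini-Hochberg at 0.05), all 8 libraries, no covariates; this scale understates the change of low miRNAs. Fold changes are knockout minus wild type. Since nothing says that libraries are separate animals, a p-value reflects only the spread among these libraries. The members, the marker lists, the naming rule (all members, sharers of a seed, the 5 miRNAs most alike to miR-199a-3p and to miR-214-3p, and the marker lists) and the tests were chosen with earlier results of these data known. Correlations were tested by exact permutation in Python 3.11.15. Sequences are RefSeq (GRCm38.p6) and host genes GENCODE on GRCm38, the assembly mm10 names. Both procedures were tested on simulated data. Other scalings, filters, pseudocounts, no trend, identical names counted once, a replicate block and leaving out each library were the alternatives.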

Additional observations from a re-analysis of the deposited data

Results flagged for a closer look

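In 110 groups of 4 libraries (52 miRNA names and 3 arm ratios, in each genotype), 11 had a single library well away from its group, against about 5.5 by chance at 1 in 20. The groups are not independent: both 3p names of miR-199 hold the same numbers, and the miR-200 family varies together. All values are rescaled ones.

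The shared value of miR-199a-3p and miR-199b-3p was high in knockout replicate 2, at 5540.2, with the other knockout libraries at 3682 to 3908. Knockout replicate 1 was the exception in the log2 ratio of miR-199a-5p to miR-199-3p, at -5.19, with the others at -5.55 to -5.51. Among the marker miRNAs, knockout replicate 5 was high for miR-200a-3p (331), miR-200b-3p (1129.7), miR-200c-3p (450.3), miR-429-3p (203) and miR-211-5p (126), and knockout replicate 4 for miR-34b-5p (7.80). Wild-type replicate 3 was high for miR-211-5p (186) and wild-type replicate 1 for the muscle miRNA miR-206-3p (253).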

How the results depend on the processing

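The log2 fold change of miR-199-3p stayed negative in all 20 alternatives, from -0.43 to -0.37 under other scalings, filters, pseudocounts, trend and pairing, and from -0.55 to -0.36 with 1 library left out. miR-214-3p ran from -0.50 to -0.30 and, with 1 library left out, from -0.79 to -0.17. miR-199a-5p ran from -0.13 to -0.04 and from -0.24 to 0.02. miR-199a-5p and miR-214-3p were not kept by a filter of 10 per 1000000. The arm ratio difference of miR-199 ran from 0.20 to 0.46 and that of miR-214 from -0.94 to 0.35 with 1 library left out, and was 0.30 and 0.14 with 5 added to each arm. Correlated pairs past 0.05 numbered 0 in all 15 alternatives; r of miR-199-3p and miR-199a-5p was reversed, at -0.0707, without the 2 farthest libraries.

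By limma, miRNAs past adjusted 0.05 numbered 0 except under a replicate block on numbers 1, 2 and 4, which gave 7, none a member. The labels do not say that the numbers pair libraries: same-numbered deviations correlated at 0.0652, -0.0385 and 0.132, and of these libraries 1 of 6 correlated best with its own number. miR-199-3p was at -0.37 with and without the block in those 6 libraries. The unadjusted count of 25 became 46 with the block and 41 in the same 6 libraries without it (added after seeing the data), 51 without a filter and 14 at 10 per 1000000 (more and fewer tested), 14 with upper quartile scaling and 9 with no rescaling; for both scalings the cause was not tested. With 1 library left out it ran from 18 to 40, the highest without wild-type replicate 3. Under other scalings the median over all tested miRNAs shifted by 0.02 or less. The likeness values of miRNAs and marker lists without knockout replicate 2 were also added after seeing the data.

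Whether the deposited values are raw counts is unknown, so no interval for counting error is given; the SE of the low miR-214-3p, 0.41, was about as large as its difference.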
